A study of Mus musculus with 3 samples.

Results

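The vomeronasal type 2 receptors (Vmn2r genes, or V2Rs) form a large mouse gene family that lies in clusters on several chromosomes. Their members were taken as the protein-coding genes of the RefSeq annotation on chromosomes 1 to 19 whose symbol is Vmn2r followed by a digit. There were 122 such genes among 20665 autosomal protein-coding genes. One of them, Vmn2r122, has no usable position on mm10 in that annotation, so 121 were counted. A run of members with at most 1 Mb between neighbours was called a cluster, which put 116 genes into 12 clusters and left 5 alone (Vmn2r18, Vmn2r28, Vmn2r118, Vmn2r120 and Vmn2r129). The genes were chosen by symbol, but the family itself was selected on its TAC and Sham peak counts. Those counts, their sharing and their place in the lists are therefore a description here and support nothing.

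5-methylcytosine (5mC) was mapped by methylated DNA immunoprecipitation and sequencing (MeDIP-seq), in which an antibody pulls down DNA fragments that carry the mark. The TAC library came from cardiomyocytes isolated from mice with pressure overload, 1 week long per the series title, and the Sham library from cardiomyocytes of Sham mice. Both used males of strain C57Bl6/J, 8 weeks old, and an Input library of the same kind of mouse, made without antibody, entered the authors' peak calling. Each group had 1 library, so no difference has a replicate check and no test was run. The sources used here do not state if animals were pooled. Peak lists hold no expression, so the labelled cell type could not be checked against its marker genes. The TAC library had 14658177 tags and 162107 peaks, and the Sham library 12585289 tags and 135886 peaks, a tag ratio of 1.16. A larger share of tags lay in peaks in TAC (34.67%) than in Sham (29.88%), per the file headers. A peak marks DNA enriched over input and is not a methylation level. More cells with the mark and more of the mark per cell cannot be told apart in a bulk library.

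V2Rs are G protein-coupled receptors of class C, with a long extracellular domain that binds peptides and proteins. They act in sensory neurons of the basal layer of the vomeronasal organ, where they detect pheromones and signals of predators or other species through the G protein subunit Gαo and the channel Trpc2. MeDIP recovers mainly fragments that carry methylated CG dinucleotides, so the number of CG in a sequence bears on what it can show.

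The promoters of the family held few CG. RefSeq windows of 300 bases (250 before to 50 after a transcript start, build GRCm38.p6, the assembly that mm10 names) were found for 115 of the 121 placed members, 116 windows in all. The motif searched was CG, which reads the same on both strands and overlaps no other motif searched. The members' windows held a median of 1 CG, against 14 in the 20085 windows of all autosomal coding genes. At least 1 CG was present in 71.6% of members' windows and in 95.6% of all windows. At most 3 were present in 94.0% of members' windows, against 23.1% of all windows, and the median GC content was 38% and 57%. The other chemosensory receptor families, Vmn1r and Olfr, also had a median of 1.

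Vmn2r29 was the exception, with 23 CG in one of its windows, where the next highest member window had 4. The 250 bases before the start follow, from RefSeq GRCm38.p6, 5′ to 3′, with every CG in capitals. They were chosen as the only member promoter that a peak overlapped, the CG-free second promoter of the same gene, a window of the duplicated cluster around it, and the promoters of the member with the most peaks and of a member with peaks in TAC alone.
Vmn2r29, CG-rich start, chr7:7278290-7278539, minus strand: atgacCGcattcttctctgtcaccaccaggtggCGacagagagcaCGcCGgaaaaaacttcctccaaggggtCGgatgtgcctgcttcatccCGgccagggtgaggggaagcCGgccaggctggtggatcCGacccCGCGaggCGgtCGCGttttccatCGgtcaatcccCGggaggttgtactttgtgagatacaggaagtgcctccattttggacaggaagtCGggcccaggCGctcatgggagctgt
Vmn2r29, second start, chr7:7247329-7247578, minus strand: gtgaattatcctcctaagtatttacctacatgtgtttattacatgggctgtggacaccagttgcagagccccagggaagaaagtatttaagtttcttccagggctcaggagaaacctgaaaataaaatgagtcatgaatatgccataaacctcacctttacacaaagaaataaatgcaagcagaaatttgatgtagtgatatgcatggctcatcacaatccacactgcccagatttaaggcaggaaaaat
Vmn2r32, identical in Vmn2r49, chr7:7479974-7480223, minus strand: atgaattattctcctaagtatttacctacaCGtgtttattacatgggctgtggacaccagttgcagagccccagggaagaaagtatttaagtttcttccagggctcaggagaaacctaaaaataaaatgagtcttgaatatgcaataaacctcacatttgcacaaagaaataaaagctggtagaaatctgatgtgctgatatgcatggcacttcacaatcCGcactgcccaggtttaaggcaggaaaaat
Vmn2r1, chr3:64081392-64081641, plus strand: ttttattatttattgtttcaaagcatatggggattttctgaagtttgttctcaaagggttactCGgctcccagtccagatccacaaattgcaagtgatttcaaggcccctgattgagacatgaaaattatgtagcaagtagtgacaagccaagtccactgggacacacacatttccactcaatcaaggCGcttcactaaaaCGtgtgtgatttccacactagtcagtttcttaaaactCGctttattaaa
Vmn2r24, chr6:123778721-123778970, plus strand: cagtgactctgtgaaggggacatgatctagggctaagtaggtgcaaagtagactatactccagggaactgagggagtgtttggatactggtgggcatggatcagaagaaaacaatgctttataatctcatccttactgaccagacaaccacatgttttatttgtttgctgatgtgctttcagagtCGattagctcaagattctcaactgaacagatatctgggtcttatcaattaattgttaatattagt
The CG-rich Vmn2r29 stretch holds 17 CG, the Vmn2r1 stretch 4, the Vmn2r32 stretch 2, the Vmn2r24 stretch 1 and the second Vmn2r29 stretch 0. The second Vmn2r29 stretch differs from that of Vmn2r32 at 19 of its 250 bases. A peak overlapped the CG-rich window of Vmn2r29 in TAC (chr7:7277727-7278478, 752 bp) and in Sham (chr7:7277742-7278368, 627 bp). It was the only member window under a peak in either library, while 3.50% of all coding windows were under a TAC peak and 3.25% under a Sham peak. The deposited lists give no signal per peak, but they run from strong to weak as far as their order could be read. Both Vmn2r29 peaks stood near the top, 3.99% of the way down the TAC list and 2.73% down the Sham list. That place was the highest of any member peak in Sham.

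Peaks were sparse in the gene bodies of the family, and more of them were called in TAC. A peak was counted once, in the gene body that held its midpoint. Members held 77 TAC peaks and 40 Sham peaks, or 24.2 and 12.6 peaks per Mb, a ratio of 1.93 (95% interval 1.30 to 2.90). All coding genes held 68.3 TAC and 64.1 Sham peaks per Mb, a ratio of 1.07. The intervals given here are exact, from the binomial share, and cover counting error only. PCR reads without molecular identifiers are not independent molecules, and neighbouring peaks are not independent either.

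A peak in at least 1 library was present in 56 of the 121 members (46.3%), against 66.3% of all coding genes, and 65 members held none. A TAC peak was present in 46 members and a Sham peak in 34. Of the 56, 22 held only TAC peaks, 10 only Sham peaks and 24 peaks of both libraries. A gene with a single peak can count for 1 library only, which was so for 15 of the 22 and all of the 10. The same split over all coding genes is not given here, so nothing is read from it. Members with a peak were longer, with a median of 30.4 kb, than members without one, at 18.4 kb. The number of TAC peaks was at least 2 times the Sham number in 31 of the 56, where 22.7% of all coding genes with a peak passed that fold. The reverse fold was passed by 11 members, against 17.8% of genes. With at least 3 peaks in both libraries together, 12 of 16 members passed the fold towards TAC (18.2% of genes) and 1 towards Sham (13.3% of genes). These folds are of the counts that chose the family, and nothing is read from them.

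Vmn2r1, a family-C receptor that is expressed broadly in basal vomeronasal neurons, held the most peaks, 8 in TAC and 4 in Sham. It is also the longest member, at 143 kb. Its 4 Sham peaks all overlapped TAC peaks, and the other 4 TAC peaks had no Sham counterpart. The highest placed TAC peak of the gene and its Sham counterpart, chr3:64113956-64114456 in TAC (501 bp) and chr3:64113601-64114574 in Sham (974 bp), stood 30.1% down the TAC list and 13.9% down the Sham list. Another shared peak of Vmn2r1 was almost equally wide in the pair, 846 bp in TAC and 847 bp in Sham, at 33.2% and 35.5% of the lists.

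No other member held more than 3 peaks in either library. Vmn2r51 had 3 TAC and 3 Sham peaks, and each TAC peak overlapped a Sham peak. Vmn2r23 had 3 TAC and 2 Sham peaks, and both Sham peaks lay at TAC peaks. Vmn2r2, whose gene body overlaps that of Vmn2r1, had 2 and 2, the same peaks as in Vmn2r1. Vmn2r3, Vmn2r59 and Vmn2r103 each had 3 TAC peaks and 1 Sham peak, and each Sham peak overlapped a TAC peak. In Vmn2r6, Vmn2r25, Vmn2r60, Vmn2r77 and Vmn2r120 there were 2 TAC peaks and 1 Sham peak, and in Vmn2r60 and Vmn2r120 the Sham peak overlapped neither TAC peak.

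The members with peaks in TAC alone included 3 with 3 peaks each, Vmn2r24, Vmn2r63 and Vmn2r78. The widest peak of Vmn2r24, chr6:123791223-123792183 (961 bp), stood 14.5% down the TAC list, and the others at 29.0% and 67.7%. The 3 peaks of Vmn2r63 were all 501 bp wide, the narrowest width in the lists, and stood between 84.9% and 91.6%. Those of Vmn2r78 stood between 78.6% and 91.7%, near the end of the TAC list. Vmn2r4, Vmn2r7, Vmn2r79 and Vmn2r93 held 2 TAC peaks and no Sham peak, and 15 more held 1 TAC peak and no Sham peak. Vmn2r116, the receptor of the male tear peptide ESP1, was among these 15.

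Each of the 10 members with Sham peaks alone held 1 peak: Vmn2r11, Vmn2r12, Vmn2r49, Vmn2r56, Vmn2r75, Vmn2r80, Vmn2r92, Vmn2r107, Vmn2r110 and Vmn2r129. Vmn2r90 was the only other member with fewer TAC than Sham peaks, 1 against 2. The numbers were equal in 13 members, among them Vmn2r26, which responds to peptides bound by major histocompatibility molecules and held 1 peak in each library. Among members with 1 peak over both libraries the peak was from TAC in 15 of 25 (60.0%, interval 38.7 to 78.9), against 53.5% of 2208 such coding genes (51.4 to 55.6).

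**Figure D1:**
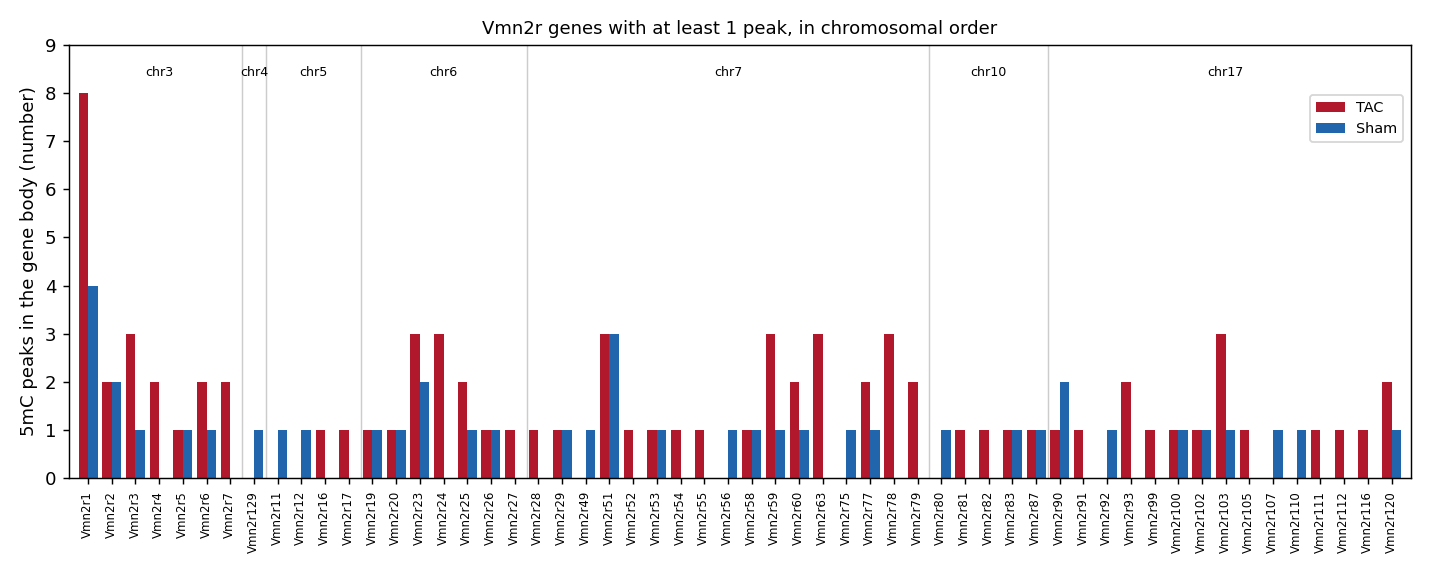
Number of 5mC peaks (vertical axis) in the gene body of each of the 56 Vmn2r genes with a peak, in chromosomal order, with TAC in red left of Sham in blue, 1 library each. Vmn2r1 stands highest with 8 TAC and 4 Sham peaks, and no other gene exceeds 3.

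The plot of peaks per member shows how small the single counts are: 27 members held exactly 1 TAC peak and 29 exactly 1 Sham peak. The peaks lay along the whole gene body. In genes whose strand is annotated, the median midpoint lay 48.5% of the way from the 5′ end in TAC and 43.1% in Sham, with the peaks common to Vmn2r1 and Vmn2r2 taken once per gene. With each peak counted once, by its nearest 5′ end, 3 TAC and 2 Sham peaks lay within 1 kb of it and 53 and 22 beyond 10 kb. The 5′ end here is the border of the annotated gene body. In some members, Vmn2r1 and Vmn2r2 among them, the transcript start of the promoter window lies well inside that border. A peak near such an inner start alone is not counted as within 1 kb. Within 1000 bp of either gene end a peak was present for 11 members in TAC and for 2 in Sham, Vmn2r23 and Vmn2r29, both also covered in TAC. The same count over all coding genes is not given here, so nothing is read from this difference.

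The clusters as a whole, genes and gaps together, covered 13.4 Mb and held 350 TAC and 188 Sham peaks, a ratio of 1.86 (1.55 to 2.23). In the gaps alone there were 276 TAC and 150 Sham peaks, or 26.7 and 14.5 per Mb, a ratio of 1.84 (1.50 to 2.26). The interval for the gaps lies within that for the genes. Outside any annotated gene lay 223 TAC and 119 Sham gap peaks. Of the gap peaks, 16 TAC and 7 Sham peaks lay in the 83 other Vmn2r entries of the annotation that touch the clusters, all but 1 of them pseudogenes. Members overlap some of these entries, and peaks within members are not counted again here. More TAC than Sham peaks were counted in 12 of 12 clusters, and the TAC list is the longer one. The same count was not made for other regions. Within gene bodies 8 clusters had more TAC peaks and 4 had equal numbers, and in the gaps 10 had more and 2 were equal. The interval of the ratio lay above 1 in 5 clusters, but all autosomal peaks stood at 1.19. The lower limit exceeded that in Vmn2r1 to Vmn2r7 (1.54), Vmn2r57 to Vmn2r126 (1.35) and Vmn2r90 to Vmn2r110 (1.22). In Vmn2r19 to Vmn2r27 (1.08) and Vmn2r65 to Vmn2r79 (1.06) it did not. Genes with a peak numbered 7 of 9 at Vmn2r19 to Vmn2r27 and 11 of 22 at Vmn2r90 to Vmn2r110, but 4 of 15 at Vmn2r65 to Vmn2r79 and 4 of 24 at Vmn2r29 to Vmn2r52. Of the 5 genes outside clusters, Vmn2r120 held 2 TAC peaks and 1 Sham peak, Vmn2r28 held 1 TAC peak, Vmn2r129 held 1 Sham peak, and Vmn2r18 and Vmn2r118 held none.

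**Figure D2:**
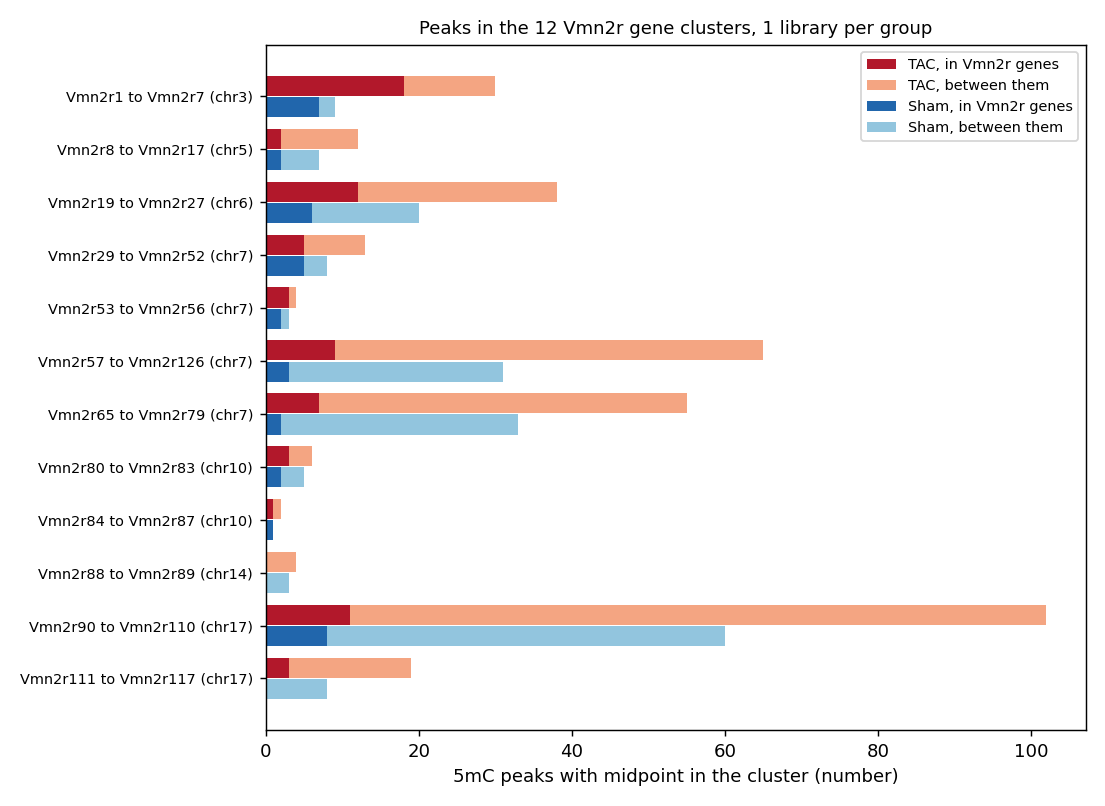
Number of 5mC peaks (horizontal axis) in each of the 12 Vmn2r clusters, with the TAC bar above the Sham bar and the dark section for peaks in Vmn2r genes. The TAC bar is the longer one in every cluster, from 2 against 1 peak at Vmn2r84 to Vmn2r87 up to 102 against 60 at Vmn2r90 to Vmn2r110.

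As the bars by cluster show, the clusters differed among themselves in density and in where their peaks lay. The chromosome 3 cluster (chr3:64078172-64719602) holds the family-C receptors Vmn2r1 to Vmn2r7, which basal neurons express alongside other V2Rs. All 7 of its genes held a peak, and it carried 30 TAC and 9 Sham peaks, 46.8 and 14.0 per Mb. Its ratio of 3.33 (1.54 to 7.98) was the highest of the 12, and 18 of its TAC peaks and 7 of its Sham peaks lay in genes. All 9 Sham peaks overlapped a TAC peak, while 21 of the 30 TAC peaks overlapped no Sham peak. In the shared position within Vmn2r5 the TAC peak stood 12.04% and the Sham peak 40.2% down its list. In Vmn2r3 the order was the other way, 58.2% in TAC and 45.8% in Sham.

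**Figure D3:**
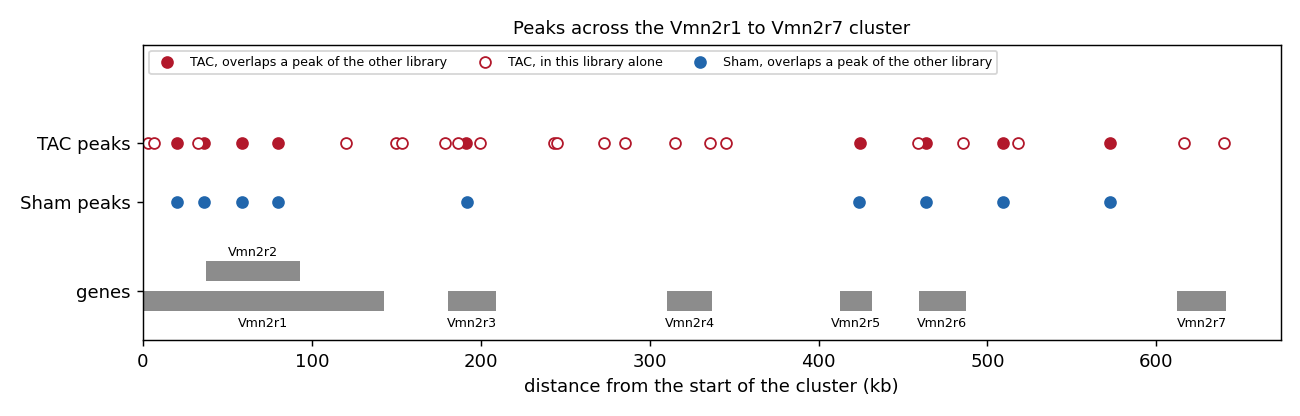
Map of the Vmn2r1 to Vmn2r7 cluster with distance from its start in kb (horizontal axis), TAC peaks above Sham peaks above the genes, filled where a peak overlaps one of the other library. The 9 Sham peaks are all filled, and 21 of the 30 TAC peaks are open and spread over genes and gaps.

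The map of this cluster shows open TAC symbols from its first to its last gene. The chromosome 6 cluster, Vmn2r19 to Vmn2r27 (chr6:123308333-124231784), had 41.1 TAC and 21.7 Sham peaks per Mb. It held 38 TAC and 20 Sham peaks, a ratio of 1.90 (1.08 to 3.45), and 16 of the Sham peaks (80.0%) overlapped TAC peaks. Vmn2r25 in this cluster held the highest placed member peak of the TAC list, chr6:123837022-123837893 (872 bp), 3.58% down. Its Sham counterpart, chr6:123837287-123837912 (626 bp), stood 10.47% down the Sham list. The widest Sham peak of all clusters, chr6:123752966-123754746 (1781 bp), lay in a gap here, 12.05% down the Sham list, and overlapped no TAC peak.

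On chromosome 17, Vmn2r90 to Vmn2r110 (chr17:17703941-20596259) held the most peaks, 102 TAC and 60 Sham peaks, at a ratio of 1.70 (1.22 to 2.38). Most of them, 91 and 52, lay between the genes. There 28.4% of TAC peaks (19.9 to 38.2) and 48.3% of Sham peaks (35.2 to 61.6) overlapped the other library, against 33.1% and 61.7% over all clusters. Some other clusters had lower shares. The cluster also spans 6 formyl peptide receptor genes, some of which serve as chemoreceptors in the vomeronasal organ, and they held 1 TAC peak, in Fpr1, and no Sham peak. Vmn2r111 to Vmn2r117 (chr17:22547941-23479597), with the ESP1 receptor Vmn2r116, held 19 TAC and 8 Sham peaks. Its genes held 3 TAC peaks and no Sham peak, and the interval of its ratio of 2.38 reached from 0.993 to 6.27.

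Chromosome 7 carries 4 clusters that differ widely. Vmn2r57 to Vmn2r126 (chr7:41399732-43048106) held 65 TAC and 31 Sham peaks, a ratio of 2.10 (1.35 to 3.33). Vmn2r65 to Vmn2r79 (chr7:84940169-87037968) held 55 and 33, a ratio of 1.67 (1.06 to 2.65). The small cluster Vmn2r53 to Vmn2r56 held 4 TAC and 3 Sham peaks, none of which overlapped. Vmn2r29 to Vmn2r52 (chr7:7212996-10176286) is the largest by span, at 2.96 Mb with 24 members, and was the sparsest, with 13 TAC and 8 Sham peaks. That is 4.39 and 2.70 per Mb, and 20 of its 24 genes held no peak. Its peaks were often shared, with 7 overlaps (53.8% of TAC and 87.5% of Sham peaks). The highest placed peaks of all clusters lay here in Clcn4, a chloride transporter gene next to Vmn2r29, 0.0629% down the TAC list and 0.0890% down the Sham list.

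This sparse cluster is also the one with the most alike promoters. In Vmn2r29 to Vmn2r52, 22 of 23 windows shared at least one stretch of 50 bases with another member's window, and the median window shared 83.3% of its stretches. The 300-base windows of Vmn2r32 and Vmn2r49 are the same in every base. The median was 53.0% in Vmn2r111 to Vmn2r117 and 0% in Vmn2r90 to Vmn2r110. Over all members with a window, a peak was present in 5 of 24 genes (20.8%) that shared over 50% of their stretches, in 26 of 48 that shared fewer, and in 23 of 43 that shared none. Most of those 24 genes lie in Vmn2r29 to Vmn2r52 itself, where only Vmn2r49 among them held a peak. Of those elsewhere, Vmn2r6, Vmn2r7, Vmn2r112 and Vmn2r116 held a peak and Vmn2r62, Vmn2r114, Vmn2r115 and Vmn2r126 held none. The comparison thus largely repeats the sparse cluster, and no link over the family is read from it. The sources used here do not state how reads that match several places were treated, and the part of such reads in these counts was not tested.

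The remaining clusters were small. Vmn2r8 to Vmn2r17 on chromosome 5 held 12 TAC and 7 Sham peaks, of which 2 and 2 lay in genes. On chromosome 10, Vmn2r80 to Vmn2r83 held 6 and 5, and Vmn2r84 to Vmn2r87 held 2 and 1. Vmn2r88 and Vmn2r89 on chromosome 14 held none in either library. The 4 TAC and 3 Sham peaks of that cluster lay between them in Gm7247, an annotated coding gene that spans both, and include a TAC peak of 2236 bp 4.12% down the list. Vmn2r88 is known as a receptor of hemoglobin.

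A smaller share of the TAC peaks than of the Sham peaks had a counterpart, while the number of shared peaks was the same in both libraries. In the clusters 116 positions were shared by an overlap of at least 1 bp, which is 33.1% of TAC peaks (28.2 to 38.3) and 61.7% of Sham peaks (54.3 to 68.7). Over all autosomal peaks the shares were 55.9% in TAC and 66.2% in Sham. In the members' gene bodies 25 positions were shared, 32.5% of TAC and 62.5% of Sham peaks. Without a counterpart were 234 TAC peaks and 72 Sham peaks, which gave a ratio of 3.25 (2.49 to 4.29), against 1.54 over the autosomes. With equal numbers shared, the libraries differ in these shares and unshared counts only through their peak counts, on which the family was selected.

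Most cluster peaks stood low in their lists. Peaks of equal rank are sorted by position, and a place says where a peak stands within its own list only. The median place was 63.1% in TAC and 71.7% in Sham, and in the members' gene bodies 58.2% and 70.1%. The last 10% of the list held 55 of the TAC peaks (15.7%) and 44 of the Sham peaks (23.4%), while the first 10% held 7 and 4. Peaks with no counterpart stood lower, at a median of 72.6% in TAC and 82.8% in Sham, than shared ones, at 40.2% and 58.3%. None of the 234 peaks of TAC alone was in the first 10% of the list and 56 were in its first 50%, while 9 of the 72 of Sham alone were in the first 50%. At 88 of the 116 shared positions the TAC peak stood nearer the top of its list, and at 28 the Sham peak did. That is 75.9% of the shared positions, against 58.4% of 89594 overlapping pairs over the autosomes, with median differences in place of -14.2 and -2.24 percentage points (TAC minus Sham). These shares were not tested, and the TAC list is the longer one.

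**Figure D4:**
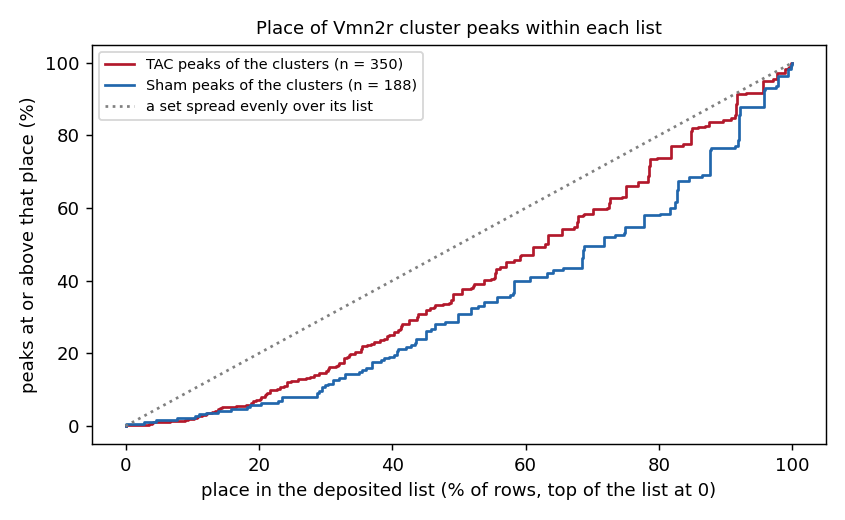
Share of cluster peaks (vertical axis, %) found at or above each place of their deposited list (horizontal axis, % of rows, top at 0), for 350 TAC peaks in red and 188 Sham peaks in blue, with a dotted line for an even spread. Both curves run below the dotted line over most of the list, with medians of 63.1% in TAC and 71.7% in Sham.

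The curves of list place lie apart in the lower part, where the Sham curve runs beneath the TAC curve. The libraries differ in depth and in their tag thresholds (12 in TAC, 11 in Sham, per the file headers), and the part of these differences in the counts of weak peaks was not tested. When both lists were held to a nearly equal threshold scaled by depth, on tag numbers inferred from the list order, 64 TAC and 39 Sham peaks remained in the members, a ratio of 1.64 (1.09 to 2.51), against 1.08 over the autosomes. In the first 50% of each list the members held 33 TAC and 12 Sham peaks, a ratio of 2.75 (1.38 to 5.85), against 1.19 over the autosomes. With the TAC list shortened to the Sham number of peaks, the ratio in members was 1.50 and its interval, 0.989 to 2.30, reached below 1, while the autosomes stood at 0.998.

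Set beside other regions, the Vmn2r clusters had a ratio near that of other gene-poor or receptor-rich DNA. The ratio was 1.62 (1.35 to 1.96) over Vmn1r clusters, 1.71 (1.57 to 1.86) over Olfr clusters and 1.81 (1.75 to 1.87) over autosomal 1 Mb windows that no coding gene touches. All of these intervals overlap that of the Vmn2r clusters. Parts of the Vmn1r and Olfr clusters lie inside Vmn2r clusters, so some peaks are counted in both. The flanks of 500 kb on either side of the clusters held 624 TAC and 438 Sham peaks, a ratio of 1.42 (1.26 to 1.61) at 52.0 and 36.5 peaks per Mb. Density in the Vmn2r clusters, 26.1 and 14.0 per Mb, was close to that of Vmn1r clusters, 24.3 and 15.0, and below that of Olfr clusters, 44.6 and 26.1. In Olfr gene bodies, 71 TAC and 65 Sham peaks gave a ratio of 1.09 (0.769 to 1.55). No test of these differences could be run with 1 library per group.

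**Figure D5:**
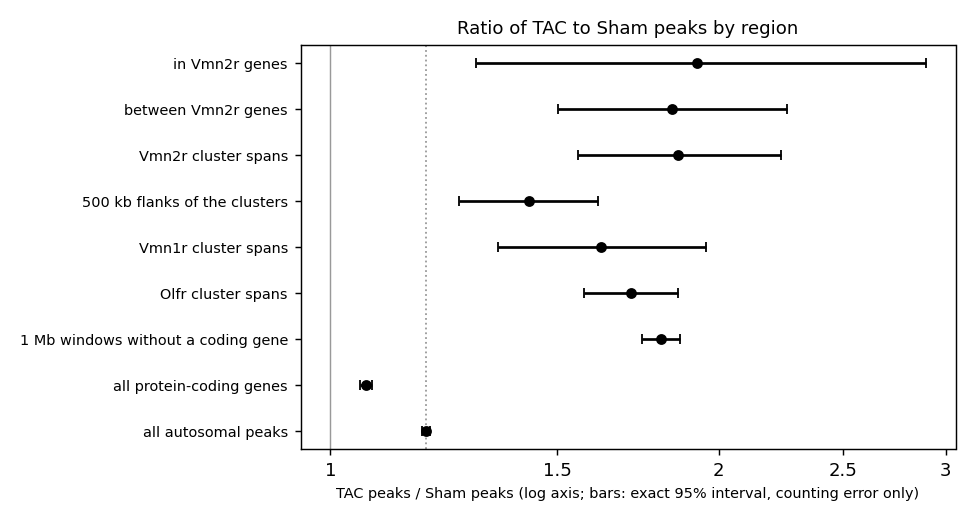
Ratio of TAC to Sham peaks (horizontal axis, logarithmic) by region, with exact 95% intervals for counting error as bars, a solid line at 1 and a dotted line at the ratio of all autosomal peaks. The Vmn2r genes, gaps and clusters, at 1.93, 1.84 and 1.86, stand with windows without a coding gene, at 1.81, while all coding genes stand at 1.07.

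The ratios by region place the Vmn2r clusters beyond the dotted line at 1.19, together with the other receptor clusters. Listed genes of vomeronasal signalling and V2R neurons elsewhere in the genome did not share one direction. Of 22 such genes found, 13 held a peak, with 234 TAC and 196 Sham peaks. Their ratio was 1.19 (0.983 to 1.45), against 1.07 over all coding genes. TAC had more peaks in 6 of them and fewer in 7. Nearly all of the TAC surplus lay in Robo2, an axon guidance receptor, with 78 TAC and 41 Sham peaks. Kirrel3, an adhesion protein of sensory axons, had 42 and 37, and the calcium-activated chloride channel genes Ano2 and Ano1 had 31 and 23, and 25 and 21. Gnao1, which encodes Gαo, had 16 TAC and 22 Sham peaks, and Bcl11b, a transcription factor of these neurons, 11 and 18. The channel gene Trpc2 had 2 and 3. The 9 H2-M genes on the list, whose products accompany V2Rs at the surface of some neurons, held no peak in either library.

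The 5 class C relatives on the list, receptors for calcium, amino acids and tastes, had equal numbers in each of the 3 with a peak. Together these held 10 TAC and 10 Sham peaks, with a wide interval of the ratio (0.374 to 2.68). Other class C receptor genes were not on the list. Casr held 6 TAC and 6 Sham peaks, the sweet taste receptor gene Tas1r2 held 3 and 3, and Gprc6a held 1 and 1. Tas1r1 and Tas1r3 held none in either library. Within the clusters, 15 Olfr genes and 2 Vmn1r genes also held none, and 7 zinc finger genes held 3 TAC and 2 Sham peaks.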

How the data were processed

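MeDIP-seq peak lists of 1 TAC and 1 Sham library were analysed. The submitters' processing notes name build mm10 and the tools HOMER 4.5, Picard and BWA 0.7.4-r385. HOMER called peaks in each library against input (peak size 500 bp, minimum distance 1000 bp, at least 4-fold over input, p of 1e-04), per the file headers. The score column that the authors deposited is 1 for every peak, so the order of rows served as rank. Read as falling tag numbers with 8 in the last block, that order adds up to 99.3% of the tags in peaks in both headers. This reading is inferred and conflicts with the headers in part: it puts 5267 TAC peaks (3.25%) under the header's tag threshold of 12 and 4420 Sham peaks (3.25%) under that of 11. The depth-scaled threshold (13 tags in TAC, 11 in Sham) rests on it.

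Genes, strands and promoter windows came from RefSeq tables of GRCm38.p6. Peaks were assigned by midpoint and shared by an overlap of 1 bp. Counts, shares and ratios were computed in Python 3.11.15 with pandas 2.3.3, numpy 2.4.6, scipy 1.17.1 (exact Clopper-Pearson 95% intervals) and matplotlib 3.10.9, and the counting was tested on simulated peaks. With 1 library per group no test was run. Alternatives were other assignments, gene borders, cluster gaps, list thresholds, overlap rules, pseudogenes and each cluster left out. Members, lists and rules were chosen with earlier results of these data known. Named members were the 12 with most peaks, the 6 with the largest difference each way, and those with a peak over a promoter window. Also named were the highest placed of each list, those at cluster ends, and fixed lists of vomeronasal signalling, V2R neuron and class C receptor genes. The remaining members were named to account for the whole family, after their values were seen, with Vmn2r26, Vmn2r49 and Vmn2r116 among them. No protein or peak sequences were used here.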

Additional observations from a re-analysis of the deposited data

How the results depend on the processing

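No ratio of TAC to Sham peaks fell below 1 under any alternative tried. Shares have no point at which they could turn round. The ratio of TAC to Sham peaks in members ran from 1.50 to 2.75 over 20 settings. Among these, joining clusters over other gaps could not change the member counts. Leaving out Vmn2r88 to Vmn2r89, whose genes held no peak, could not change them either. Joining clusters over gaps of at most 2 Mb brought the ratio in the gaps to 1.49 and in whole clusters to 1.53. With the TAC list shortened to the Sham number of peaks these ratios were 1.43 and 1.45, and the share of TAC peaks with a Sham counterpart was 40.1%. That alternative drops the last 16.2% of the TAC rows, which held 78 of the 350 cluster peaks (22.3%). Requiring at least 3 peaks left 12 members past the fold of 2 towards TAC, of 16 rather than 56 genes. Leaving out 1 cluster at a time moved the ratio to between 1.79 and 2.06 in genes, 1.78 and 1.92 in gaps, and 1.79 and 1.94 in whole clusters. It moved the shared share to between 32.1% and 35.1% in TAC and between 58.6% and 68.0% in Sham. No paired analysis was possible because each group has 1 library. Counting error limits the single clusters and genes, most of which hold few peaks.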

Other observations

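Vmn2r121 lies on chromosome X (chrX:124127339-124135910, mm10), outside the autosomes, and held no TAC and no Sham peak. Adding all 129 other autosomal Vmn2r entries to the members, of which 83 touch the clusters and 46 lie outside them, gave 114 TAC and 60 Sham peaks, a ratio of 1.90 (1.38 to 2.64). Gap peaks lay at a median of 31.7 kb from the nearest member in TAC and 40.2 kb in Sham, and 44 of 276 TAC and 15 of 150 Sham gap peaks were within 10 kb of one. With 5000 bp added on either side, the members held 110 TAC and 51 Sham peaks, a ratio of 2.16 (1.53 to 3.07).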
